A study of Ovis aries with 32 samples.

Results

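The SLC25 carriers are the family of transport proteins that move metabolites, nucleotides, cofactors and ions, mostly across the inner mitochondrial membrane. The genes described here are the rows of a sheep expression table named SLC25A followed by a number, with SLC25A1, SLC25A10, SLC25A15 and SLC25A20 left out, and they came to 39 of 30722 rows. They were followed across 4 tissues and 2 diets. No gene name of the family stood on more than 1 row.

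Each SLC25 carrier is a small protein of repeated modules that binds a substrate on one side of the membrane and releases it on the other, usually in exchange for a second substrate. The ADP/ATP carriers and the phosphate carrier feed ATP synthase, the oxoglutarate and aspartate/glutamate carriers belong to the malate-aspartate shuttle, and other members bring amino acids, coenzymes, nucleotides, iron and glutathione into the organelle. In liver the aspartate/glutamate exchange also serves urea synthesis and gluconeogenesis. Succinate, the substance fed here, is an intermediate of the tricarboxylic acid cycle and a substrate of the dicarboxylate carrier SLC25A10, which is outside the set described here.

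The animals were male Tan sheep aged 3 months when the trial began, which held 24 of them, 12 on each diet. Sheep of the SA groups received a basal pellet with succinic acid at 1% of dry matter, and sheep of the CON groups received the basal pellet without it, in both cases for 60 days after 10 days of adaptation. Liver, tail adipose tissue (called tail fat), hypothalamus and pituitary were sampled from 4 sheep per diet, which gave 8 groups of 4 poly(A)-selected RNA sequencing libraries, 32 in all. No label states if a replicate number stands for 1 sheep across tissues. Levels are in TPM, a unit that accounts for transcript length, so that different carriers can be set side by side.

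The labels were checked against defining markers. Liver and tail fat libraries carried their own: the 9 hepatocyte markers summed to 7885 to 31530 TPM in the SA livers and to 95460 to 109600 TPM in the CON livers, and the 7 adipocyte markers summed to between 10850 and 74740 TPM in tail fat. The libraries labelled hypothalamus and pituitary carried neuronal markers, but the hypothalamic list summed to no more than 12.3 TPM and the anterior pituitary list to no more than 5.90 TPM in any of them. The gonadotropin subunit gene CGA was listed at 0 in all 16. Striatal markers reached 2040 to 3695 TPM in the libraries labelled hypothalamus. The names hypothalamus and pituitary are therefore used below as labels, and the 2 tissues together are called the brain-labelled tissues. TPM holds no record of sequencing depth, so depth is unknown. TPM is a share, so a library with more of 1 kind of transcript shows lower values for the rest, and mitochondrially encoded transcripts took between 20.2% and 70.9% of TPM.

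Of the 39 carriers, 36 had a mean of 1 TPM or higher in 1 or more CON tissues. The other 3 were SLC25A2, an ornithine carrier, SLC25A24, a calcium-regulated ATP-Mg/phosphate carrier, and SLC25A31, an ADP/ATP carrier known from human and mouse testis. None of these exceeded 0.60 TPM in any library. No row carried the names SLC25A18, SLC25A37, SLC25A40, SLC25A43 or SLC25A52, so nothing under these names was analysed.

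**Figure D1:**
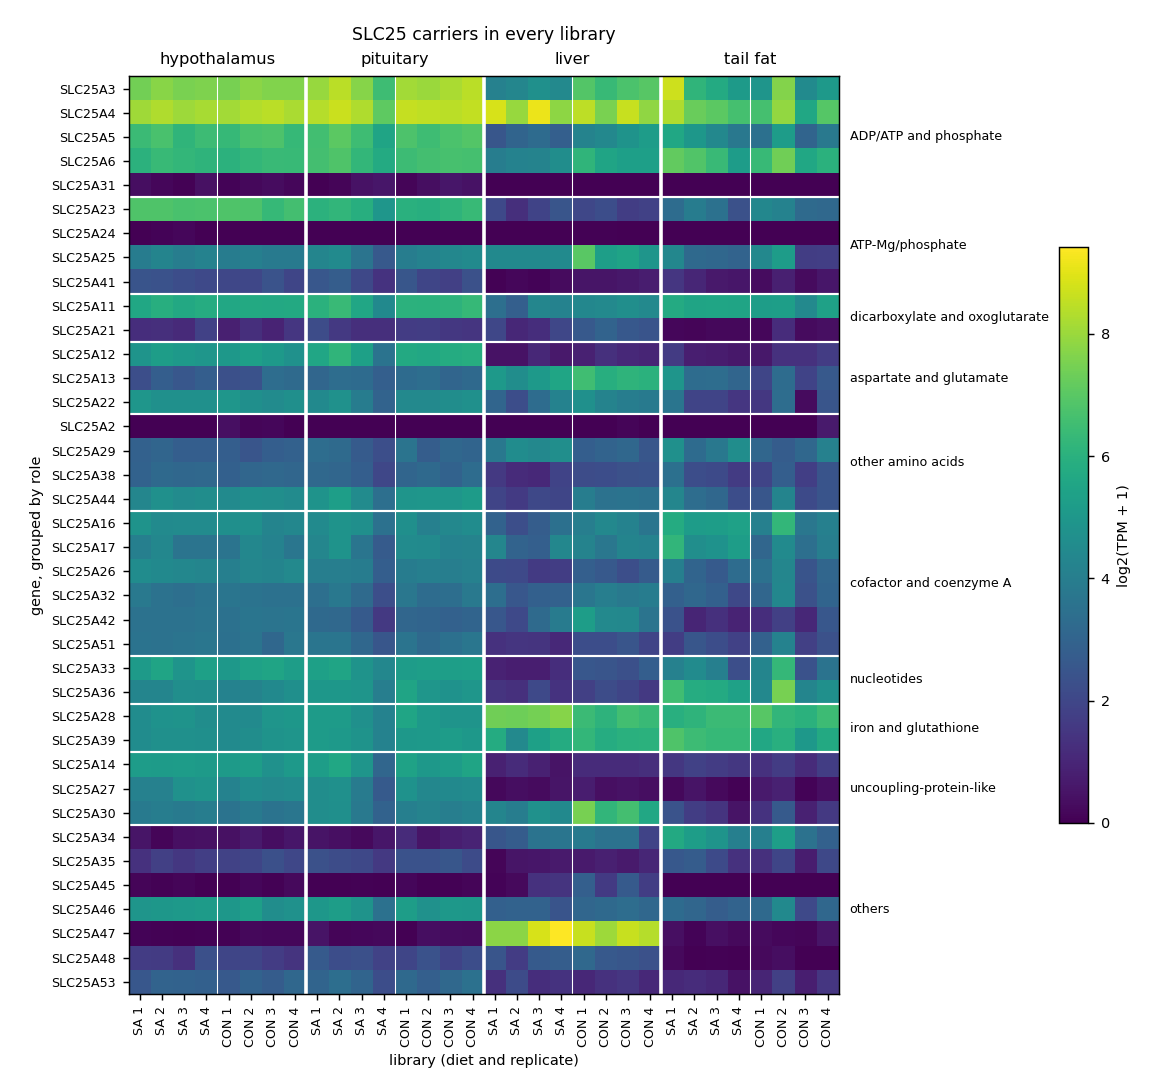
Level of 38 SLC25 carriers (rows, grouped by role) in each of the 32 libraries (columns, by labelled tissue, diet and replicate), coloured by log2(TPM + 1). SLC25A47 was bright in the liver columns, SLC25A12, SLC25A14 and SLC25A27 in the brain-labelled columns, and SLC25A3 was dark in the SA liver columns beside the CON liver columns.

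Under the CON diet the ADP/ATP and phosphate carriers dominated the family in the brain-labelled tissues and SLC25A47 stood beside them in liver. SLC25A4, the ADP/ATP carrier of muscle, heart and brain, made up 20.6% ± 3.76 of the family's TPM in liver, 16.9% ± 2.96 in tail fat, 24.6% ± 1.38 in hypothalamus and 24.4% ± 1.26 in pituitary (SD, n = 4 each). SLC25A47, an orphan carrier known in human and mouse for its restriction to liver, made up 25.03% ± 2.03 of the family's TPM in liver. Together the 5 ADP/ATP and phosphate carriers held 33.96% ± 3.03 of it in liver, 39.2% ± 4.68 in tail fat, 53.6% ± 2.35 in hypothalamus and 57.1% ± 0.826 in pituitary. The family's summed level was 1379 ± 295 TPM in liver, 736 ± 462 TPM in tail fat, 1259 ± 73.1 TPM in hypothalamus and 1508 ± 96.1 TPM in pituitary. The highest mean of a carrier lay in pituitary for 16 of the 36, in liver for 10, in tail fat for 5 and in hypothalamus for 5.

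Tissue differences among the 16 CON libraries were tested with limma on log2(TPM + 1), with p-values adjusted over all 15929 genes tested and a threshold of 0.05. Each difference is a log2(TPM + 1) value given with its standard error (SE). Against tail fat, liver had 11 carriers higher and 6 lower of 36, where 23.3% of all genes were called higher and 20.8% lower. Against the mean of the brain-labelled tissues, liver had 11 higher and 19 lower, where 16.6% of all genes were higher and 58.7% lower. Tail fat had 3 higher and 22 lower than the brain-labelled tissues, where 14.1% of all genes were higher and 59.7% lower. The median difference over all genes was -0.87 for liver minus brain and -0.93 for tail fat minus brain, and that of the carriers was -0.83 and -0.85. The carriers' median thus lay close to that of all genes, and its sign followed the scaling. After median centring the median of the carriers was 0.21 for liver minus brain and 0.36 for tail fat minus brain, beside 0.16 and 0.28 for all genes, and tail fat minus brain had 18 carriers higher and 13 lower. After quantile normalization tail fat minus brain had 16 higher and 14 lower. The shares of all genes called under these scalings are not given here, so the counts are not read as a result about the carriers.

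Single carriers separated 1 tissue from the others. All 4 CON liver libraries lay above all 12 other CON libraries for 5 of the 36 carriers, where 8.86% of all genes did, and these were SLC25A13, SLC25A21, SLC25A30, SLC25A45 and SLC25A47. They lay below all others for 2 carriers, SLC25A23 and SLC25A36, where 11.7% of all genes did. SLC25A21 overlaps the genes PAX9 and MIPOL1 in the RefSeq sheep annotation, so reads may have been divided between them, here and in the diet tests below. Pituitary libraries lay above all others for 4 carriers (14.2% of all genes), SLC25A3, SLC25A11, SLC25A12 and SLC25A44. Tail fat libraries lay below all others for 4 (6.97% of all genes), SLC25A22, SLC25A30, SLC25A42 and SLC25A48. Hypothalamus libraries lay below all others for SLC25A39 alone (1.41% of all genes). No carrier was separated in this way as higher in hypothalamus (5.22% of all genes), higher in tail fat (4.89%) or lower in pituitary (0.195%).

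The aspartate/glutamate carriers changed places between liver and the brain-labelled tissues. SLC25A12 (aralar) and SLC25A13 (citrin) are paralogs that export aspartate from mitochondria in exchange for glutamate, and the citrin form is the one known from human and mouse liver. SLC25A13 averaged 70.6 ± 13.8 TPM in liver, 4.97 ± 2.93 TPM in tail fat, 6.45 ± 2.79 TPM in hypothalamus and 8.51 ± 0.976 TPM in pituitary (SD, n = 4 each). SLC25A12 averaged 1.11 ± 0.278 TPM in liver, 1.44 ± 0.669 TPM in tail fat, 32.05 ± 5.02 TPM in hypothalamus and 53.1 ± 3.67 TPM in pituitary. SLC25A13 was higher in liver than in the brain-labelled tissues by 3.11 ± 0.28 (SE, limma adjusted p = 1.3e-08), while SLC25A12 differed between the same tissues by -4.32 ± 0.19 (SE, limma adjusted p = 6.7e-13). Within single libraries, where no scaling enters, the ratio of SLC25A12 to SLC25A13 was 0.00929 to 0.0253 in CON livers, 0.170 to 0.551 in CON tail fat, 3.09 to 9.14 in CON hypothalamus and 5.01 to 7.502 in CON pituitary. It was below 1 in every liver and tail fat library and above 1 in every brain-labelled library, on both diets. In tail fat it was 0.0699 to 0.0818 under SA, below every CON value. How many other gene pairs lack overlap between diets in tail fat was not examined. SLC25A22, a glutamate carrier, averaged 17.8 ± 5.57 TPM in liver, 4 ± 4.01 TPM in tail fat, 25.4 ± 3.38 TPM in hypothalamus and 22.6 ± 2.44 TPM in pituitary, and was lower in tail fat than in the brain-labelled tissues, with a difference of -2.72 ± 0.39 (SE, limma adjusted p = 5.9e-06).

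SLC25A47 was the carrier with the sharpest tissue pattern. It had 394, 259.6, 389 and 330.4 TPM in the CON livers and no more than 0.46 TPM in any other CON library, a difference of 8.21 ± 0.16 (SE, limma adjusted p = 4.6e-17) against the brain-labelled tissues. SLC25A30, a carrier related in sequence to the uncoupling proteins, averaged 99.5 ± 56.1 TPM in liver, 2.44 ± 2.01 TPM in tail fat, 11.8 ± 1.2 TPM in hypothalamus and 16.4 ± 1.04 TPM in pituitary. Its relatives SLC25A14 and SLC25A27, known from brain, ran the other way. SLC25A14 averaged 1.27 ± 0.0736 TPM in liver, 1.81 ± 0.501 TPM in tail fat, 32.2 ± 4.53 TPM in hypothalamus and 38.1 ± 5.64 TPM in pituitary. SLC25A27 averaged 0.412 ± 0.186 TPM in liver, 0.438 ± 0.341 TPM in tail fat, 20.6 ± 2.71 TPM in hypothalamus and 22.5 ± 3.17 TPM in pituitary. In liver minus brain the difference was 2.59 ± 0.32 (SE, limma adjusted p = 8.1e-07) for SLC25A30, -3.98 ± 0.17 (SE, limma adjusted p = 3.5e-13) for SLC25A14 and -3.99 ± 0.17 (SE, limma adjusted p = 5.1e-13) for SLC25A27. With the SA libraries in place of the CON libraries, SLC25A30 no longer passed that test.

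**Figure D2:**
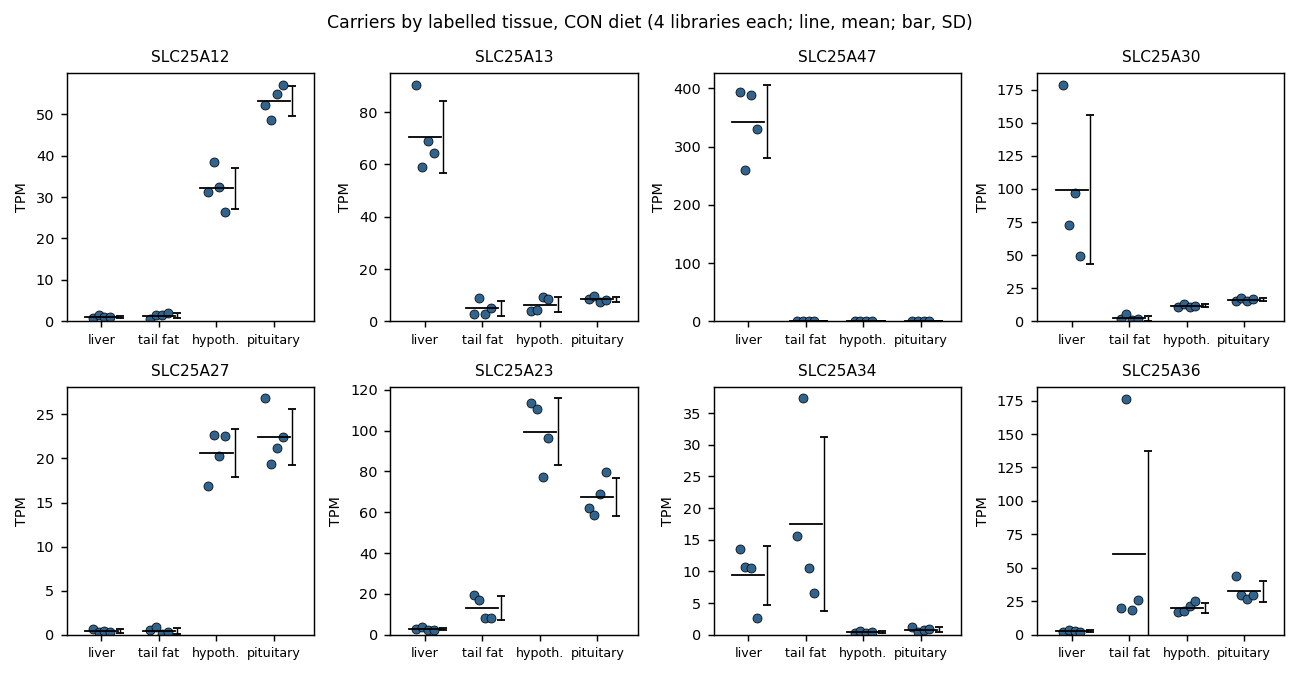
TPM of 8 carriers in the 4 CON libraries of each labelled tissue (points), with the mean (line) and SD (bar, drawn only above 0). SLC25A12 was high in the brain-labelled tissues and SLC25A13 in liver, and both were low in tail fat. SLC25A47 was at or below 0.46 TPM outside liver, and tail fat CON 2 stood at 176 TPM for SLC25A36, against 18.6 to 25.7 TPM in the other CON tail fat libraries.

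The calcium-regulated ATP-Mg/phosphate carriers, which adjust the nucleotide content of the mitochondrial matrix, were divided as well. SLC25A23 averaged 2.902 ± 0.633 TPM in liver, 13.3 ± 5.89 TPM in tail fat, 99.4 ± 16.5 TPM in hypothalamus and 67.3 ± 9.28 TPM in pituitary, a difference of -4.41 ± 0.24 (SE, limma adjusted p = 1.2e-11) in liver minus brain. SLC25A25 averaged 59.1 ± 45.7 TPM in liver, 15.2 ± 16.2 TPM in tail fat, 14.3 ± 0.951 TPM in hypothalamus and 18.2 ± 2.93 TPM in pituitary. Its liver mean rested in part on liver CON 1, at 127 TPM, and its call in liver minus brain, 1.56 ± 0.54 (SE, limma adjusted p = 0.0153), was lost without that library and with the SA libraries in place of the CON libraries. SLC25A41, a relative without the calcium-binding part, averaged 3.28 ± 0.654 TPM in hypothalamus and 3.52 ± 1.06 TPM in pituitary and stayed below 1 TPM in CON liver. The SLC25A23 and SLC25A41 genes overlap in the RefSeq sheep annotation, so reads may have been divided between them.

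Iron and glutathione carriers were higher in the peripheral tissues. SLC25A28, a mitochondrial iron importer (mitoferrin), averaged 81.7 ± 10.8 TPM in liver, 86.7 ± 26.5 TPM in tail fat, 25.9 ± 4.88 TPM in hypothalamus and 33.6 ± 7.96 TPM in pituitary. It was higher than in the brain-labelled tissues by 1.45 ± 0.22 (SE, limma adjusted p = 1.1e-05) in liver and by 1.499 ± 0.22 (SE, limma adjusted p = 8.3e-06) in tail fat. SLC25A39, which imports glutathione, averaged 63.7 ± 7.13 TPM in liver, 47.9 ± 12.01 TPM in tail fat, 25.5 ± 3.405 TPM in hypothalamus and 32.7 ± 2.06 TPM in pituitary, and was higher by 1.11 ± 0.19 (SE, limma adjusted p = 5.3e-05) in liver and by 0.68 ± 0.19 (SE, limma adjusted p = 0.0045) in tail fat. With the SA libraries in place of the CON libraries, the liver minus brain difference of SLC25A39 was 0.59 and did not pass (limma adjusted p = 0.056), while its tail fat minus brain difference passed. SLC25A34 was the third carrier to be higher in tail fat than in the brain-labelled tissues, at 17.5 ± 13.7 TPM against 0.43 ± 0.156 TPM in hypothalamus and 0.82 ± 0.332 TPM in pituitary, by 3.27 ± 0.37 (SE, limma adjusted p = 4.2e-07).

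Among the cofactor carriers, SLC25A42, a coenzyme A transporter, averaged 22.2 ± 10.5 TPM in liver, 2.45 ± 1.75 TPM in tail fat, 11.3 ± 0.598 TPM in hypothalamus and 7.19 ± 0.488 TPM in pituitary. It was higher in liver than in tail fat by 2.77 ± 0.32 (SE, limma adjusted p = 1.5e-06). SLC25A16, linked to coenzyme A, and SLC25A17, the peroxisomal member that carries coenzyme A, FAD and NAD, did not pass in any of these contrasts, and SLC25A32, which carries folate and FAD, did not either. The nucleotide carriers SLC25A33 and SLC25A36, which exchange pyrimidine nucleotides, were both lower in liver than in the brain-labelled tissues, with differences of -2.73 ± 0.45 (SE, limma adjusted p = 2.9e-05) and -2.85 ± 0.43 (SE, limma adjusted p = 1.1e-05). SLC25A36 was also lower in liver than in tail fat, at 2.71 ± 0.677 TPM in liver against 60 ± 77.3 TPM in tail fat, a difference of -3.35 ± 0.497 (SE, limma adjusted p = 2.6e-05).

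The direction of small tissue differences depended on how libraries were scaled. After quantile normalization or median centring the differences of SLC25A38 (liver minus brain and tail fat minus brain) and of SLC25A11, SLC25A21, SLC25A26 and SLC25A35 (tail fat minus brain) changed sign. With the SA libraries in place of the CON libraries, the liver minus brain calls of SLC25A21, SLC25A25, SLC25A30, SLC25A39, SLC25A42 and SLC25A48 were lost, and so were the tail fat minus brain calls of SLC25A11, SLC25A35 and SLC25A38. Between hypothalamus and pituitary, 0 of 36 carriers were higher and 1 was lower, where 4.48% of all genes were higher and 8.63% lower. That carrier was SLC25A12, at 31.1, 38.5, 32.3 and 26.3 TPM in the CON hypothalamus and 52.2, 48.5, 54.8 and 57.01 TPM in the CON pituitary. Its groups did not overlap and its difference was -0.72 ± 0.22 (SE, limma adjusted p = 0.0386), but the call was lost under each of the 3 scalings, with the SA libraries and without any of 9 single libraries of the 16.

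The effect of the diet was tested within each tissue, SA minus CON, with limma on log2(TPM + 1). Liver was the tissue in which carriers passed the test. Of the 32 carriers tested there, 2 were higher in SA livers, where 5.21% of all genes were, and 18 were lower, where 59.1% of all genes were. The share of carriers called lower, 56.2%, was near that of all genes. Every SA library lay above every CON library for 2 carriers (4.07% of all genes) and below for 19 (54.2% of all genes). The median change of the carriers was -0.88 and that of all 11582 genes was -0.83. Of the 7 carriers left out by the requirement of 1 TPM in 4 or more libraries of 8, none exceeded 1.49 TPM in any liver library.

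The SA and CON livers differed as libraries before any carrier was considered. Mitochondrially encoded transcripts took 51.7% to 70.9% of TPM in SA livers and 20.2% to 27.8% in CON livers. The hepatocyte marker sums given above did not overlap, endothelial markers summed to 5.32 to 11.7 TPM in SA livers and 44.97 to 67.8 TPM in CON livers, and macrophage markers to 92.2 to 274 TPM in SA livers and 287 to 458 TPM in CON livers. The gene SELENOP, which encodes selenoprotein P, stood at 241 to 773 TPM in SA livers and 4282 to 5758 TPM in CON livers, while CCDC152 stood at 168 to 842 TPM in SA livers and was listed at 0 in CON livers. These properties separated the same libraries as the diet, so the diet and these differences cannot be told apart. Fewer cells of a type and less RNA per cell cannot be told apart either in bulk tissue. The carriers as a family took 0.250% to 0.424% of the TPM outside mitochondrially encoded and ribosomal RNA in SA livers and 0.152% to 0.223% in CON livers, with no overlap. This sum does not stand for each carrier. With those transcripts removed, 5 of 34 carriers were called higher and 4 lower, where 15.4% and 13.8% of all genes were. SLC25A4, SLC25A47 and SLC25A28 made up on average 30.9%, 30.9% and 14.8% of the family's TPM in SA livers. In CON livers they made up 20.6%, 25.03% and 6.04%. How many other gene sets lack overlap in this way was not examined. Changes below are therefore also given relative to the median of all genes.

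**Figure D3:**
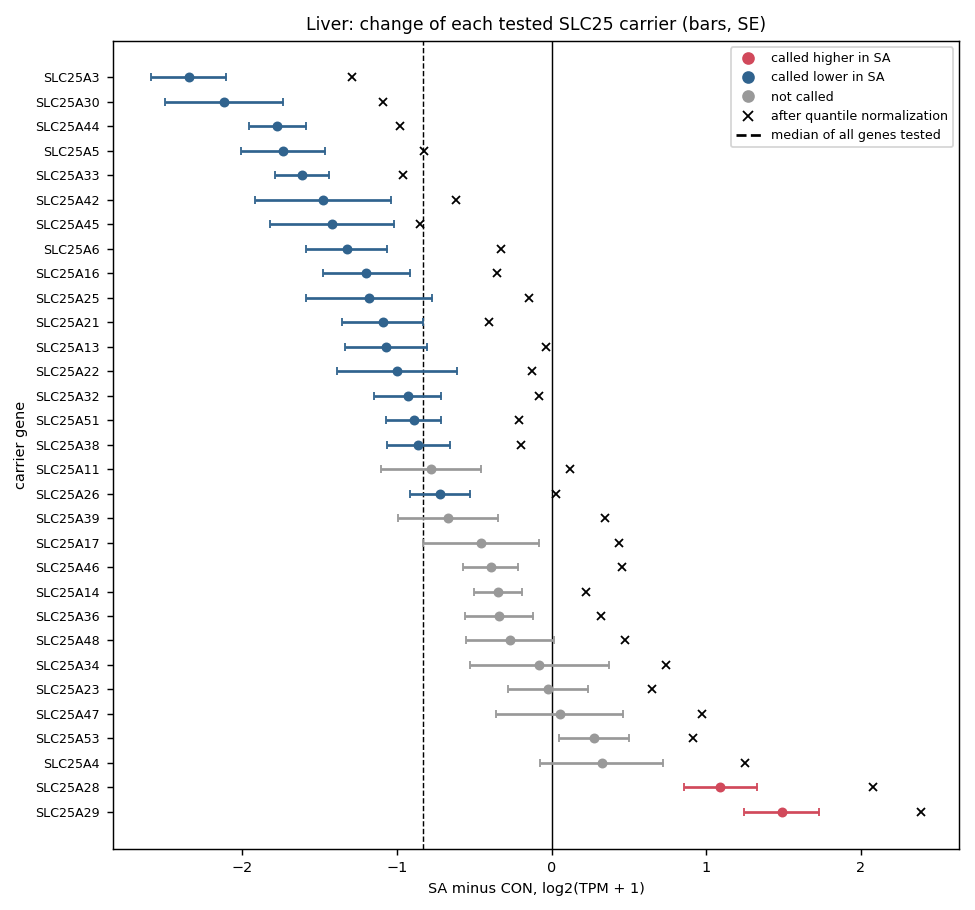
Change of 31 carriers tested in liver, SA minus CON in log2(TPM + 1) (points, with SE), with the median of all genes at -0.83 (dashed line) and the change after quantile normalization (crosses). SLC25A29 and SLC25A28 lay to the right of 0 and SLC25A3 and SLC25A30 farthest to the left, with both values.

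The carriers higher in SA livers were SLC25A28 and SLC25A29. SLC25A28 had 163, 159, 173 and 206 TPM in the SA livers and 83.5, 67.3, 93.4 and 82.8 TPM in the CON livers, so that every SA library lay above every CON library. Its change was 1.09 ± 0.24 (SE, limma adjusted p = 0.0029), or 1.93 relative to the median of all genes. SLC25A29, which carries basic amino acids such as arginine and lysine, had 12.8, 22.9, 19.9 and 23.9 TPM in the SA livers and 5.95, 6.93, 7.78 and 4.7 TPM in the CON livers, again without overlap. It rose by 1.49 ± 0.24 (SE, limma adjusted p = 6.1e-04), or 2.32 relative to the median. Both stayed higher after quantile normalization, after removal of mitochondrially encoded and ribosomal RNA, and after median centring. The glutathione carrier SLC25A39 had 53.7, 20.6, 39.7 and 55.04 TPM in the SA livers and 73.3, 56.4, 61.4 and 63.8 TPM in the CON livers. Every SA value lay below every CON value, but its change of -0.67 ± 0.33 (SE, limma adjusted p = 0.0962) did not pass. The ratio of SLC25A28 to SLC25A39 within a library was 3.03 to 7.73 in SA livers and 1.14 to 1.52 in CON livers. Since SLC25A28 was higher and SLC25A39 lower in every SA liver, this ratio could not overlap between diets and is no separate result.

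The ADP/ATP and phosphate carriers separated from each other. SLC25A3 had 16.5, 18.9, 25.4 and 20.6 TPM in the SA livers and 119, 80.6, 108 and 124 TPM in the CON livers, and this phosphate carrier, which supplies ATP synthase, fell by 2.35 ± 0.24 (SE, limma adjusted p = 7.5e-05), and stood at -1.51 relative to the median of all genes. SLC25A5 had 4.77, 7.1, 8.78 and 6.23 TPM in the SA livers and 17.5, 19.9, 27.6 and 35.8 TPM in the CON livers, and SLC25A6 had 14.9, 17.2, 17.6 and 23.3 TPM in the SA livers and 70.8, 44.4, 38.8 and 38.7 TPM in the CON livers. SLC25A5 and SLC25A6, the ADP/ATP carriers of dividing and of most other cells, were lower, with a change of -1.74 ± 0.27 (SE, limma adjusted p = 4.6e-04) and -1.33 ± 0.26 (SE, limma adjusted p = 0.0017). SLC25A4 had 459, 248, 557 and 225 TPM in the SA livers and 353, 184, 390.0 and 228 TPM in the CON livers, with overlapping groups, and its change was 0.32 ± 0.399 (SE, limma adjusted p = 0.493). Relative to the median of all genes SLC25A4 stood 1.16 higher, and it passed as higher after quantile normalization (1.25), after removal of mitochondrially encoded and ribosomal RNA (1.39) and after median centring (1.12). Within a library, SLC25A4 exceeded SLC25A3 by a factor of 10.9 to 27.9 in SA livers and of 1.84 to 3.62 in CON livers, and exceeded SLC25A5 by a factor of 34.97 to 96.3 in SA livers and of 6.36 to 20.2 in CON livers. The ranges did not overlap for either ratio. How many other gene pairs lack overlap between these livers was not examined. In tail fat the ratio of SLC25A4 to SLC25A3 was lowest in SA 1 (0.740) and CON 2 (1.15), and elsewhere lay between 2.14 and 3.65. It thus divided tail fat by library and not by diet. The ratio of SLC25A4 to SLC25A5 was not divided so, at 6.54 in both libraries and 4.99 to 9.58 elsewhere. Both libraries are described below, and the part of their division in the liver ratios was not tested. SLC25A4, SLC25A5 and SLC25A6 have closely similar sequences, so the split of reads between them is uncertain.

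Both other amino acid carriers tested were lower. SLC25A44, which imports branched-chain amino acids, had 2.83, 2.05, 3.1 and 2.92 TPM in the SA livers and 14.9, 10.8, 11.02 and 10.4 TPM in the CON livers and fell by 1.77 ± 0.18 (SE, limma adjusted p = 7.5e-05), and stood at -0.94 relative to the median. SLC25A38, the glycine importer of heme synthesis, was lower, with a change of -0.86 ± 0.203 (SE, limma adjusted p = 0.0045), close to the median of all genes. The ratio of SLC25A29 to SLC25A44 within a library was 4.52 to 11.2 in SA livers and 0.399 to 0.706 in CON livers. SLC25A29 thus exceeded SLC25A44 in every SA liver and was below it in every CON liver. Every SA liver was already higher for SLC25A29 and lower for SLC25A44 than every CON liver, so this ratio could not overlap between diets. It is no separate result.

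SLC25A13 had 32.4, 23.6, 32.1 and 45.8 TPM in the SA livers and 90.4, 58.9, 68.8 and 64.2 TPM in the CON livers, without overlap, and its change was -1.07 ± 0.27 (SE, limma adjusted p = 0.0059), or -0.24 relative to the median. SLC25A22 had 7.3, 3.65, 8.94 and 17.02 TPM in the SA livers and 25.8, 17.4, 14.7 and 13.3 TPM in the CON livers, with overlap, and its change was -0.999 ± 0.39 (SE, limma adjusted p = 0.045). Leaving out any one of 7 of the 8 libraries ended that call. SLC25A12 had 0.37, 0.37, 1.07 and 0.57 TPM in the SA livers and 0.84, 1.49, 1.14 and 0.99 TPM in the CON livers, with overlap, and it was not tested in liver. SLC25A11, the oxoglutarate/malate carrier, had 9.72, 6.15, 18.8 and 17.1 TPM in the SA livers and 19.8, 20.5, 23.9 and 20.5 TPM in the CON livers, without overlap, and its change of -0.78 ± 0.32 (SE, limma adjusted p = 0.0556) did not pass. SLC25A21, which carries oxoadipate, was lower, with a change of -1.09 ± 0.26 (SE, limma adjusted p = 0.0046).

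Of the 7 cofactor and coenzyme A carriers, 6 were lower and none was higher. SLC25A16 had 6.78, 3.76, 5.79 and 10.2 TPM in the SA livers and 15.3, 19.9, 17.2 and 11.6 TPM in the CON livers, a change of -1.199 ± 0.28 (SE, limma adjusted p = 0.0044). SLC25A32 had 9.7, 4.9, 6.31 and 6.61 TPM in the SA livers and 12.1, 15.4, 13.01 and 14.4 TPM in the CON livers, a change of -0.93 ± 0.22 (SE, limma adjusted p = 0.0041). These carriers had no overlap between diets, and relative to the median of all genes they stood at -0.37 and -0.10. SLC25A51 had 1.54, 1.74, 1.7 and 1.1 TPM in the SA livers and 3.69, 3.72, 4.58 and 2.8 TPM in the CON livers, and this NAD carrier changed by -0.89 ± 0.18 (SE, limma adjusted p = 0.0017). SLC25A42 had 4.93, 3.2, 8.61 and 13.9 TPM in the SA livers and 36.5, 20.8, 20.3 and 11.3 TPM in the CON livers, with overlap, and it changed by -1.48 ± 0.44 (SE, limma adjusted p = 0.0147). SLC25A26, which imports S-adenosylmethionine, was lower, with a change of -0.72 ± 0.196 (SE, limma adjusted p = 0.0093), but stood above 0 after each of the 3 scalings. SLC25A17 had 19.1, 7.05, 6.15 and 19.6 TPM in the SA livers and 17.6, 12.2, 18.1 and 17.1 TPM in the CON livers and did not pass.

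SLC25A33 had 0.89, 0.75, 0.71 and 1.32 TPM in the SA livers and 4.94, 4.61, 3.98 and 5.98 TPM in the CON livers, without overlap, and this pyrimidine nucleotide carrier fell by 1.62 ± 0.17 (SE, limma adjusted p = 8.6e-05), and stood at -0.78 relative to the median. Its partner SLC25A36 did not pass, at -0.34 ± 0.22 (SE, limma adjusted p = 0.201). SLC25A30 had 18.6, 14.9, 25.8 and 20.99 TPM in the SA livers and 178, 72.9, 97.05 and 49.5 TPM in the CON livers, and fell by 2.12 ± 0.38 (SE, limma adjusted p = 0.001), and stood at -1.29 relative to the median. SLC25A25 had 21.03, 21.1, 21.3 and 21.6 TPM in the SA livers and 127, 37.3, 43.2 and 28.9 TPM in the CON livers. The SA values of SLC25A25 lay within 1 TPM of each other while liver CON 1 stood far above the other CON livers. Its change was -1.18 ± 0.41 (SE, limma adjusted p = 0.028), and the call was lost in 7 of 16 alternatives. It was lost without liver SA 1, without liver SA 3, without the filter on low values and in a joint fit of all libraries. Quantile normalization, median centring and removal of mitochondrially encoded and ribosomal RNA also ended it. Over the alternatives the change of SLC25A25 ranged from -1.43 to -0.147. SLC25A23 had 3.24, 1.41, 2.68 and 4.59 TPM in the SA livers and 3.04, 3.73, 2.29 and 2.55 TPM in the CON livers and did not pass. SLC25A27 had 0.14, 0.28, 0.21 and 0.44 TPM in the SA livers and 0.68, 0.32, 0.39 and 0.26 TPM in the CON livers and was not tested.

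Of the 6 tested carriers outside these groups, 1 was lower and none higher. SLC25A47 had 221, 218, 462 and 681 TPM in the SA livers and 394, 259.6, 389 and 330.4 TPM in the CON livers, and its change was 0.05 ± 0.41 (SE, limma adjusted p = 0.916), which was 0.89 relative to the median of all genes. The SA livers held both the lowest and the highest value of SLC25A47. After removal of mitochondrially encoded and ribosomal RNA SLC25A47 passed as higher (change 1.12, limma adjusted p = 0.033), and after quantile normalization it did not (0.97, limma adjusted p = 0.053). SLC25A45 was lower, with a change of -1.42 ± 0.401 (SE, limma adjusted p = 0.0114). SLC25A34, SLC25A46, SLC25A48 and SLC25A53 did not pass, with changes between -0.39 and 0.27.

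**Figure D4:**
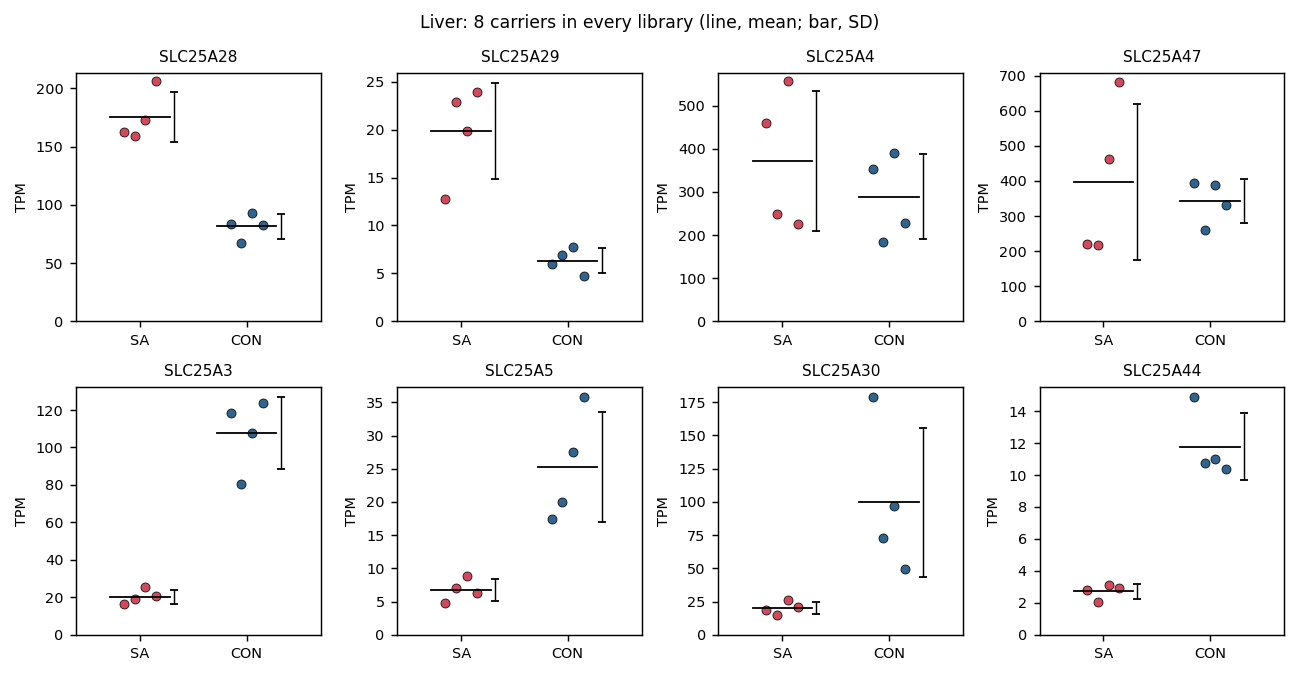
TPM of 8 carriers in each of the 4 SA and 4 CON livers (points), with the mean (line) and SD (bar). SLC25A28 and SLC25A29 lay higher in all SA livers, SLC25A3, SLC25A5, SLC25A30 and SLC25A44 lower in all SA livers, and SLC25A4 and SLC25A47 overlapped.

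Scaling changed the balance of calls in liver. Quantile normalization gave 4 carriers higher and 4 lower of 32, where 16.3% and 21.1% of all genes were called. Removal of mitochondrially encoded and ribosomal RNA gave 5 higher and 4 lower of 34, where 15.4% and 13.8% of all genes were, and median centring gave 5 higher and 5 lower of 32, where 16.8% and 19.7% were. SLC25A28, SLC25A29 and SLC25A4 were higher and SLC25A3, SLC25A30, SLC25A33 and SLC25A44 were lower under all 3. SLC25A5 passed as lower after median centring. SLC25A53 passed as higher after quantile normalization and median centring, SLC25A23 after median centring and the removal, and SLC25A47 after the removal. SLC25A53 overlaps the gene ZCCHC18 in the RefSeq annotation, so reads may have been divided between them.

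Other genes of mitochondrial transport were mostly lower in SA livers, where 59.1% of all genes were. Of 24 tested genes for other transport systems of mitochondria, 20 were lower and 0 higher. VDAC2, a porin of the outer membrane, averaged 14.8 ± 4.39 TPM in SA livers and 88.3 ± 9.94 TPM in CON livers (SD, n = 4 each) and changed by -2.53 ± 0.25 (SE, limma adjusted p = 6.5e-05). MCU, the pore of the calcium uniporter, averaged 4.09 ± 1.04 TPM in SA livers and 15.2 ± 0.516 TPM in CON livers. Of 12 genes for import of carrier proteins, 10 were lower and 0 higher, among them TIMM22, the insertase of the inner membrane, at 1.16 ± 0.467 TPM in SA livers and 4.73 ± 1.16 TPM in CON livers. All 5 tested enzymes of the malate-aspartate and glycerol phosphate shuttles were lower. MDH1, cytosolic malate dehydrogenase, averaged 16.1 ± 6.23 TPM in SA livers and 99.1 ± 8.99 TPM in CON livers. The median change was -1.37 for the transport genes, -1.10 for the import genes and -1.54 for the shuttle enzymes, beside -0.83 for all genes. No gene of these lists passed in the other tissues.

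In tail fat 0 of 30 carriers passed in either direction, where 0.277% of all genes were higher and 0.42% lower. Unadjusted limma p-values were below 0.05 for 3 carriers, all with higher values in SA tail fat. The share of all genes at that level is not given here, so this count cannot be set against it. SLC25A17 had 72.1, 24.1, 27.01 and 37.1 TPM in the SA tail fat and 7.6, 21.5, 9.94 and 15.3 TPM in the CON tail fat, without overlap, and its change was 1.46 ± 0.49 (SE, limma adjusted p = 0.201). SLC25A13 had 29.3, 9.17, 9.36 and 7.44 TPM in the SA tail fat and 2.88, 9.02, 2.74 and 5.25 TPM in the CON tail fat, and its change was 1.22 ± 0.52 (SE, limma adjusted p = 0.307). SLC25A39 had 113, 87.3, 77.4 and 77.4 TPM in the SA tail fat and 48.6, 59.96, 31.4 and 51.5 TPM in the CON tail fat, without overlap, and its change was 0.899 ± 0.42 (SE, limma adjusted p = 0.344). SLC25A11 had 52.7, 44.5, 45.9 and 44.2 TPM in the SA tail fat and 36.3, 37.4, 20.4 and 40.6 TPM in the CON tail fat, the third carrier without overlap, with a change of 0.505 ± 0.42 (SE, limma adjusted p = 0.615). Groups without overlap and higher in SA tail fat made up 3 of 30 carriers and 4.63% of all genes, and those lower made up 0 of 30 carriers and 5.05% of all genes. Quantile normalization called SLC25A13 higher and no carrier lower, where 1.66% of all genes were higher and 2.05% lower. Median centring called SLC25A13, SLC25A17 and SLC25A39 higher and none lower, where 4.25% of all genes were higher and 2% lower. Removal of mitochondrially encoded and ribosomal RNA called 0 of 31, where 1.31% of all genes were higher and 9.49% lower.

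Tail fat SA 1 and tail fat CON 2 stood apart from the other 6 tail fat libraries. SELENOP reached 598 TPM in SA 1 and 972 TPM in CON 2, against 45.96 to 197 TPM in the other 6, CCDC152 was at 0.07 and 0.12 TPM there, against 57.8 to 186 TPM in the other 6, and mitochondrially encoded transcripts took 25.6% and 22.5% of TPM, against 36.4% to 70.6%. Skeletal muscle markers summed to 39.97 TPM in SA 1 and 95.7 TPM in CON 2, and to no more than 13.6 TPM in the other 6. Their part in the carriers' values was not tested. The SA and CON livers were divided by the same properties: CCDC152 was at or near 0, SELENOP high and the mitochondrial share low in the CON livers as in these 2 tail fat libraries, and CCDC152 did not exceed 0.08 TPM in any brain-labelled library. SLC25A3, SLC25A5, SLC25A6 and SLC25A44 were higher on the low-CCDC152 side in both tissues. That side is CON in liver and 1 library of each diet in tail fat. SLC25A22, called lower in SA livers but with overlap there, was also higher in SA 1 and CON 2 than in the other 6 tail fat libraries. SLC25A33 and SLC25A51, also lower in SA livers, were not divided in this way in tail fat. SLC25A13 was divided in part: SA 1 and CON 2 were the highest of their diets, but CON 2 lay within the range of the other SA libraries. The part of this division in the liver differences was not tested. The phosphate carrier showed the split most: SLC25A3 had 419, 70.5, 53.4 and 33.7 TPM in the SA tail fat and 28.9, 205, 21.98 and 33.4 TPM in the CON tail fat, so that SA 1 and CON 2 were the highest of their diets. SLC25A36 had 92.4, 56.4, 53 and 41.3 TPM in the SA tail fat and 19.9, 176, 18.6 and 25.7 TPM in the CON tail fat, with the same 2 libraries highest. In the 6 libraries without them, 0 of 28 carriers passed in limma. An unadjusted limma p fell below 0.05 for 7 of the 28, and the share of all genes at that level is not given here. Of 30 carriers, 7 were higher in every SA than in every CON library, where 14.2% of all genes were. None was lower in every one, where 7.89% of all genes were. The 7 without overlap were SLC25A3, SLC25A11, SLC25A13, SLC25A16, SLC25A17, SLC25A36 and SLC25A39. The lowest limma adjusted p was 0.070, for SLC25A17.

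**Figure D5:**
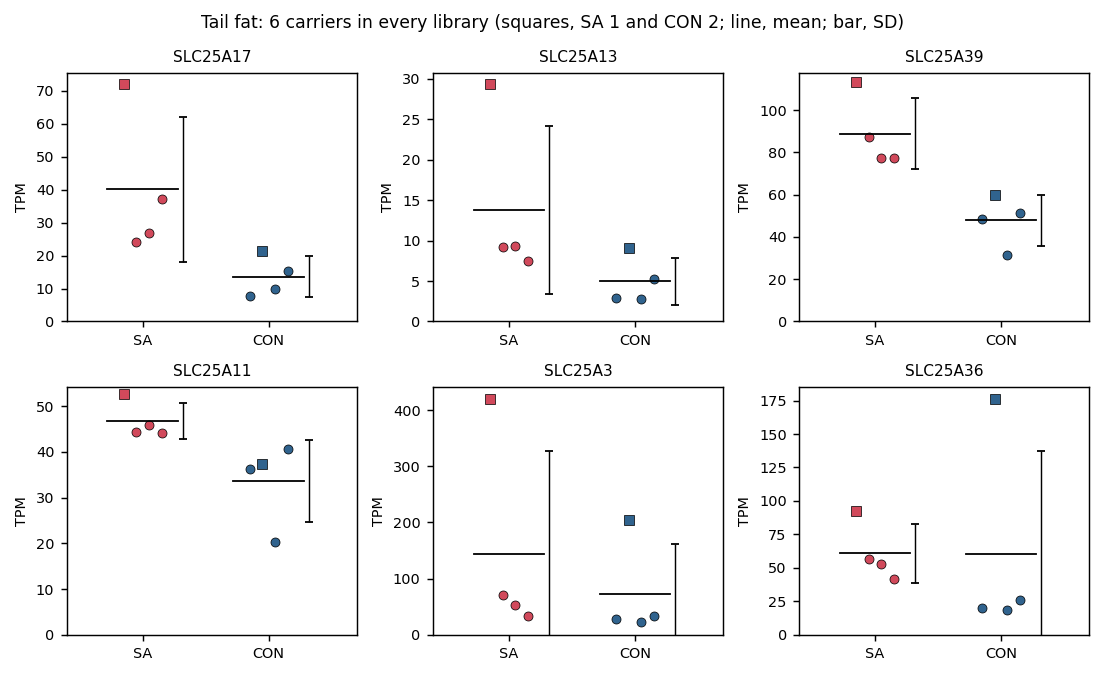
TPM of 6 carriers in each of the 4 SA and 4 CON tail fat libraries (points, with SA 1 and CON 2 as squares), with the mean (line) and SD (bar, drawn only above 0). SLC25A17, SLC25A39 and SLC25A11 did not overlap between diets, and the squares were the highest of their diet for SLC25A3 and SLC25A36.

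The lowest p-values among carriers with lower values in SA tail fat belonged to SLC25A51, SLC25A53 and SLC25A32. SLC25A51 had 2.25, 4.71, 3.68 and 2.54 TPM in the SA tail fat and 6.6, 16.99, 2.43 and 4.06 TPM in the CON tail fat, a change of -0.74 ± 0.51 (SE, limma adjusted p = 0.534). SLC25A53 had 1.1, 1.3, 1.06 and 0.38 TPM in the SA tail fat and 0.97, 2.46, 0.74 and 1.84 TPM in the CON tail fat, a change of -0.32 ± 0.33 (SE, limma adjusted p = 0.699). SLC25A32 had 6.42, 7.82, 6.41 and 3.16 TPM in the SA tail fat and 7.52, 19.7, 4.06 and 7.18 TPM in the CON tail fat, a change of -0.46 ± 0.498 (SE, limma adjusted p = 0.713). All 3 overlapped between diets.

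The other carriers of known role overlapped between diets in tail fat. SLC25A4 had 310.3, 151, 130.3 and 99.9 TPM in the SA tail fat and 97.6, 235, 47.9 and 122 TPM in the CON tail fat. SLC25A5 had 47.4, 30.3, 19.9 and 12.6 TPM in the SA tail fat and 10.2, 35.9, 7.12 and 13.01 TPM in the CON tail fat. SLC25A6 had 141, 115, 83.3 and 35.6 TPM in the SA tail fat and 79.2, 166, 47.4 and 62.8 TPM in the CON tail fat. All 3 ADP/ATP carriers were highest in SA 1 among the SA libraries and in CON 2 among the CON libraries. SLC25A12 had 2.07, 0.75, 0.66 and 0.52 TPM in the SA tail fat and 0.54, 1.53, 1.51 and 2.16 TPM in the CON tail fat. SLC25A22 had 11.7, 2.8, 2.82 and 1.8 TPM in the SA tail fat and 1.87, 9.39, 0.22 and 4.52 TPM in the CON tail fat. SLC25A25 had 19.3, 8.3, 7.95 and 7.01 TPM in the SA tail fat and 20.04, 36.04, 2.31 and 2.34 TPM in the CON tail fat. SLC25A12 did not exceed 2.16 TPM in any of them, and SLC25A22 and SLC25A25 varied widely within each diet. SLC25A33 had 16.7, 22.01, 15.5 and 3.81 TPM in the SA tail fat and 18.3, 75.7, 4.16 and 11.03 TPM in the CON tail fat. SLC25A42 had 4.15, 0.95, 1.48 and 0.90 TPM in the SA tail fat and 1.35, 2.47, 1.07 and 4.92 TPM in the CON tail fat. SLC25A44 had 18.9, 9.24, 7.84 and 3.64 TPM in the SA tail fat and 4.72, 17.8, 3.3 and 4.48 TPM in the CON tail fat. None of these passed. SLC25A27 and SLC25A47 stayed below 1 TPM in all 8 tail fat libraries, at 0.05 to 0.41 and 0.07 to 0.31 TPM in SA tail fat and 0.06 to 0.83 and 0.08 to 0.46 TPM in CON tail fat. SLC25A28, higher in SA livers, had 60.3, 68.04, 84.1 and 83.4 TPM in SA tail fat and 123, 72.5, 63.02 and 87.7 TPM in CON tail fat, a change of -0.19 ± 0.41 (SE, limma adjusted p = 0.87).

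In the libraries labelled hypothalamus 0 of 33 carriers passed in limma, and 0 genes (0%) passed in all, with 493 of 14126 genes at an unadjusted p below 0.05. Unadjusted p-values fell below 0.05 for 2 carriers. SLC25A35 had 1.53, 2.45, 1.91 and 2.32 TPM in the SA hypothalamus and 2.58, 2.9, 3.95 and 3.01 TPM in the CON hypothalamus, with every SA value below every CON value, and its change was -0.43 ± 0.15 (SE, limma adjusted p = 0.947). It was the single carrier of 33 without overlap and lower, where 0.496% of all genes were, and no carrier was without overlap and higher, where 1.47% of all genes were. SLC25A35 overlaps the gene RANGRF in the RefSeq annotation, so reads may have been divided between them. SLC25A30 had 13.4, 14.9, 13.3 and 14.8 TPM in the SA hypothalamus and 10.9, 13.4, 10.9 and 11.97 TPM in the CON hypothalamus, with overlap, a change of 0.24 ± 0.099 (SE, limma adjusted p = 0.947). SLC25A25 had 14.5, 18.2, 14.96 and 16.8 TPM in the SA hypothalamus and 14.4, 15.6, 13.7 and 13.5 TPM in the CON hypothalamus, and SLC25A26 had 22.6, 21.3, 19.3 and 18.5 TPM in the SA hypothalamus and 15.6, 19.1, 17.9 and 20.7 TPM in the CON hypothalamus, the next in p-value with higher values in SA. Their changes were 0.16 ± 0.102 (SE, limma adjusted p = 0.947) and 0.15 ± 0.11 (SE, limma adjusted p = 0.947).

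The energy carriers did not pass in hypothalamus. SLC25A3 had 169, 214, 180.3 and 194 TPM in the SA hypothalamus and 178, 219, 197 and 197 TPM in the CON hypothalamus. SLC25A4 had 265, 311, 264 and 290.2 TPM in the SA hypothalamus and 278, 319, 344 and 299.5 TPM in the CON hypothalamus, a change of -0.13 ± 0.103 (SE, limma adjusted p = 0.947). SLC25A5 had 84.5, 103, 70.3 and 86.02 TPM in the SA hypothalamus and 77.99, 103, 109 and 77.8 TPM in the CON hypothalamus. SLC25A4 was the most abundant of the family in all 8 libraries. SLC25A6 had 65.3, 80.7, 73.8 and 69.4 TPM in the SA hypothalamus and 65.7, 73.9, 83.05 and 79.2 TPM in the CON hypothalamus. All 4 overlapped between diets. The shuttle and glutamate carriers overlapped too. SLC25A11 had 48.04, 59.5, 50.7 and 55.6 TPM in the SA hypothalamus and 48.4, 51.3, 50.4 and 51.4 TPM in the CON hypothalamus. SLC25A12 had 28.2, 36.6, 32.2 and 30.2 TPM in the SA hypothalamus and 31.1, 38.5, 32.3 and 26.3 TPM in the CON hypothalamus. SLC25A13 had 3.78, 5.96, 4.85 and 5.99 TPM in the SA hypothalamus and 3.89, 4.21, 9.2 and 8.51 TPM in the CON hypothalamus, a change of -0.22 ± 0.27 (SE, limma adjusted p = 0.953). SLC25A13 was higher in CON 3 and CON 4 than in every other hypothalamus library. Oligodendrocyte markers summed to 22920 TPM in CON 3 and 17610 TPM in CON 4, against 2043 to 6654 TPM in the other 6 libraries, and their part in this was not tested. SLC25A22 had 29.8, 25.4, 25.2 and 25.8 TPM in the SA hypothalamus and 30.2, 24.7, 22.1 and 24.8 TPM in the CON hypothalamus. SLC25A27 had 16.5, 16.5, 25.9 and 28.5 TPM in the SA hypothalamus and 16.9, 22.7, 20.3 and 22.5 TPM in the CON hypothalamus. SLC25A33 had 34.3, 44.7, 28 and 40.2 TPM in the SA hypothalamus and 31.4, 41.1, 44.1 and 36.4 TPM in the CON hypothalamus. These 3 overlapped between diets. SLC25A42 had 10.8, 10.8, 10.7 and 11.2 TPM in the SA hypothalamus and 10.4, 11.6, 11.4 and 11.7 TPM in the CON hypothalamus. SLC25A44 had 18.9, 25.1, 22.5 and 23.4 TPM in the SA hypothalamus and 21.6, 24.8, 24.4 and 22.1 TPM in the CON hypothalamus. Neither passed, and SLC25A47 was at or below 0.16 TPM in all 8 libraries.

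In the libraries labelled pituitary 0 of 33 carriers passed, 0 had an unadjusted p below 0.05, and 0 genes (0%) passed in limma in all, with 218 of 14472 at an unadjusted p below 0.05. No carrier was without overlap between diets, where 0.325% of all genes were so and higher and 0.85% lower. The change was below 0 for 31 of the 33, with a median of -0.33 beside -0.27 for all genes. Pituitary SA 4 stood apart: its carriers summed to 564 TPM, against 1192 to 1742 TPM in the other 7 pituitary libraries, and mitochondrially encoded transcripts took 67.4% of its TPM, against 36.4% to 50.6%. Its neuronal markers summed to 584 TPM, against 1575 to 2728 TPM in the other 7, and TTR, a transport protein gene of hepatocytes and choroid plexus, stood at 3081 TPM, against 8.38 to 465 TPM. Their part in the carriers' values was not tested. Without SA 4 the median was -0.05 for the carriers and -0.02 for all genes. SLC25A3 had 247, 342, 208 and 88.5 TPM in the SA pituitary and 274, 256, 296 and 347 TPM in the CON pituitary, a change of -0.55 ± 0.37 (SE, limma adjusted p = 0.747). SLC25A22 had 21.2, 26.1, 14.5 and 6.98 TPM in the SA pituitary and 20.3, 20.8, 23.7 and 25.5 TPM in the CON pituitary, a change of -0.51 ± 0.36 (SE, limma adjusted p = 0.747). SLC25A27 had 23.3, 25.8, 14.2 and 5.35 TPM in the SA pituitary and 26.8, 19.4, 21.2 and 22.4 TPM in the CON pituitary, a change of -0.56 ± 0.4001 (SE, limma adjusted p = 0.747). In each of these SA 4 was the lowest library. Above 0 stood SLC25A48, a choline transporter, at 0.14 ± 0.26 and SLC25A41 at 0.04 ± 0.32 (SE, limma adjusted p = 0.802 and 0.955).

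The ADP/ATP carriers of the pituitary did not pass either. SLC25A4 had 326, 404, 314 and 134 TPM in the SA pituitary and 382, 361, 345 and 379 TPM in the CON pituitary. SLC25A5 had 94.6, 132, 89.7 and 44.3 TPM in the SA pituitary and 110.0, 89.7, 105 and 119 TPM in the CON pituitary. SLC25A6 had 95.7, 111, 73.7 and 53.6 TPM in the SA pituitary and 86.7, 95.8, 102 and 98.5 TPM in the CON pituitary. SA 4 was the lowest and SA 2 the highest library for all 3. SLC25A11 had 63.1, 82.2, 47.2 and 20.9 TPM in the SA pituitary and 64.6, 64.3, 67.1 and 78.8 TPM in the CON pituitary. SLC25A12 had 46.5, 70.7, 39.6 and 11.04 TPM in the SA pituitary and 52.2, 48.5, 54.8 and 57.01 TPM in the CON pituitary. SLC25A13 had 7.59, 9.24, 8.82 and 6.29 TPM in the SA pituitary and 8.67, 9.68, 7.31 and 8.36 TPM in the CON pituitary. SA 4 was the lowest library for all 3, and the ratio of SLC25A12 to SLC25A13 was 1.75 in SA 4, against 4.49 to 7.65 in the other 7 libraries. SLC25A25 had 18.4, 21.6, 11.3 and 5.16 TPM in the SA pituitary and 14.9, 16.9, 19.5 and 21.6 TPM in the CON pituitary. SLC25A33 had 39.6, 43.9, 27.4 and 19.7 TPM in the SA pituitary and 35.9, 37.7, 37.4 and 38.8 TPM in the CON pituitary. SLC25A42 had 8.28, 8.17, 5.36 and 1.99 TPM in the SA pituitary and 7.71, 7.26, 6.53 and 7.26 TPM in the CON pituitary. These 3 carriers serve ATP-Mg, pyrimidine nucleotides and coenzyme A. SLC25A44 had 27.5, 37.6, 22.3 and 9.71 TPM in the SA pituitary and 28.9, 29.9, 30.03 and 35.4 TPM in the CON pituitary. SA 4 was the lowest for all 4 of them, and SLC25A47 did not exceed 0.41 TPM in any pituitary library.

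Whether the diet difference of a carrier varied among the 4 tissues was asked of all 32 libraries at once, by limma's F-test for interaction. The test had no term for sheep, so any libraries from the same sheep counted as independent. It passed for 12 of 36 carriers, where 27% of all genes passed. Without mitochondrially encoded and ribosomal RNA it passed for 8 of 36, where 31.3% of all genes passed, and after quantile normalization for 12 of 36, where 30.1% did. Leaving out single libraries gave between 10 and 18 carriers, and the highest count came without tail fat CON 2. For SLC25A3, a change of -2.35 ± 0.24 in liver stood beside 0.88 ± 0.79 in tail fat, -0.06 ± 0.11 in hypothalamus and -0.55 ± 0.37 in pituitary (SE). For SLC25A13, -1.07 ± 0.27 in liver stood beside 1.22 ± 0.52 in tail fat, -0.22 ± 0.27 in hypothalamus and -0.09 ± 0.25 in pituitary. SLC25A28 changed by 1.09 ± 0.24 in liver, with -0.19 ± 0.41 in tail fat, -0.02 ± 0.14 in hypothalamus and -0.27 ± 0.31 in pituitary. The others that passed were SLC25A5, SLC25A16, SLC25A17, SLC25A21, SLC25A29, SLC25A30, SLC25A39, SLC25A44 and SLC25A45. The median change of all genes was -0.83 in liver, -0.06 in tail fat, 0.02 in hypothalamus and -0.27 in pituitary.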

How the data were processed

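Expression was measured by RNA sequencing in 32 libraries, 8 groups of 4. The authors deposited TPM per gene. Per the submitters' processing notes the tools were fastp, HISAT2 and RSEM. The sources used here give no versions or roles for them, and no build, annotation or strand setting. Per the labels' protocols, libraries were stranded and poly(A)-selected. Columns summed to between 936939 and 987320 TPM, and 8 columns of group means were not used. No pair of libraries was identical.

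A gene was tested where 4 or more libraries of a comparison reached 1 TPM. Tests used limma 3.58.1 in R 4.3.3 (mean trend, robust, two-sided) on log2(TPM + 1), a scale that understates changes of low genes, and were checked on simulated data. Benjamini-Hochberg adjustment covered all genes tested, with a threshold of 0.05. Each tissue was fitted alone for diet, the 16 CON libraries together for tissue, and all 32 for the interaction. The reported tissue and interaction fits had no term for sheep. The replicate block was tried for diet and tissue and not for the interaction. A RefSeq gene table (assembly ARS-UI_Ramb_v3.0) matched 38 of 39 carriers by symbol and served only to see overlapping genes. Up to 10 called carriers per direction in liver, the 3 of lowest p per direction elsewhere and a list of carriers of known role are given library by library. Alternatives covered the pseudocount, filter, scaling, array weights, a joint fit, the replicate block and each library left out. One carrier is included in the counts but is not otherwise reported here. The carriers and gene lists were chosen with earlier results of these data known.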

Additional observations from a re-analysis of the deposited data

Results flagged for a closer look

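In groups of 4 libraries, a library was noted where its gap to the nearest of the others was large for the range of the group. This happened in 19 of the 245 groups of 4 libraries for the carriers reported here with a mean at or above 1 TPM, and chance alone gives about 1 in 20. Tail fat SA 1 was the highest of its 4 for SLC25A3 at 419 TPM, SLC25A12 at 2.07 TPM, SLC25A13 at 29.3 TPM, SLC25A22 at 11.7 TPM and SLC25A25 at 19.3 TPM. Tail fat CON 2 was the highest for SLC25A3 at 205 TPM, SLC25A16 at 75.04 TPM, SLC25A36 at 176 TPM and SLC25A44 at 17.8 TPM. These 2 libraries thus held 9 of the 19. In liver, CON 1 was the highest for SLC25A25 at 127 TPM and SLC25A44 at 14.9 TPM, SA 2 for SLC25A53 at 3.48 TPM and SA 3 for SLC25A36 at 3.19 TPM, and SA 4 was the lowest for SLC25A46 at 4.5 TPM. Hypothalamus SA 1 was the highest for SLC25A16 at 27.6 TPM and SLC25A22 at 29.8 TPM, and CON 3 for SLC25A41 at 4.26 TPM. Pituitary SA 4 was the lowest for SLC25A26 at 6.1 TPM and SLC25A36 at 15.4 TPM.

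The diet difference varied among tissues, by the limma F-test of the interaction, for 12 of 36 carriers (33.3%), where 27% of all genes passed. Without mitochondrially encoded and ribosomal RNA it did for 8 of 36 (22.2%), where 31.3% of all genes passed. The count is therefore not read as a trait of the carriers. The adjusted p was 0.0035 for SLC25A45, 0.0045 for SLC25A13, 0.0051 for SLC25A5 and 0.0052 for SLC25A30. By the same limma test the adjusted p was 0.0115 for SLC25A44, 0.0119 for SLC25A28, 0.0127 for SLC25A3 and 0.0139 for SLC25A29. For the last of them the limma adjusted p was 0.0146 for SLC25A39, 0.0208 for SLC25A21, 0.0220 for SLC25A16 and 0.0222 for SLC25A17. Of these, SLC25A3, SLC25A5, SLC25A13, SLC25A16, SLC25A17, SLC25A39 and SLC25A44 had a negative change in liver and a positive change in tail fat, and the test covers the 4 tissues together.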

How the results depend on the processing

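Counts of carriers called, higher then lower, moved with scaling. In liver SA minus CON they were 2 and 18 as reported, 4 and 4 after quantile normalization, 5 and 4 without mitochondrially encoded and ribosomal RNA, and 5 and 5 after median centring. Without single libraries they were 2 and 16 to 19. The calls over all genes in liver were 603 and 6842 as reported, 1886 and 2440 after quantile normalization, 1975 and 1779 without mitochondrially encoded and ribosomal RNA and 1949 and 2286 after median centring. In tail fat SA minus CON, 0 carriers were higher as reported, 1 after quantile normalization, 3 after median centring, 3 in a joint fit of all libraries and 7 with array weights, and 0 without each single library; over all genes the counts were 31 and 47 as reported, 851 and 1163 in the joint fit and 1466 and 1373 with array weights. In pituitary array weights called 127 and 38 of all genes, where the reported test called 0.

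For liver minus tail fat, 6 carriers were lower as reported, 11 after quantile normalization, 16 without mitochondrially encoded and ribosomal RNA, 11 after median centring, 18 in the SA libraries, and 3 to 8 without single libraries, with 3 when liver CON 3 or tail fat CON 4 was left out; 8 to 15 were higher. For liver minus brain, 11 were higher as reported and 5 in the SA libraries, and 19 were lower as reported and 12 after median centring (8 to 11 and 18 to 20 without single libraries). For tail fat minus brain, 3 were higher as reported, 16 after quantile normalization, 18 after median centring and 8 in the SA libraries, and 22 were lower as reported, 14 after quantile normalization and 13 after median centring (3 to 4 and 20 to 29 without single libraries). For hypothalamus minus pituitary, 1 carrier was higher after quantile normalization, without mitochondrially encoded and ribosomal RNA and after median centring, and 2 with array weights, against 0 as reported; 0 were lower with a pseudocount of 0.1 TPM, under those 3 scalings, in the SA libraries and with the replicate number as a block, 9 with array weights, and 0 to 3 without single libraries, against 1 as reported. The interaction gave 12 carriers as reported, 8 without mitochondrially encoded and ribosomal RNA and 10 to 18 without single libraries. The shares of all genes called under the alternatives to the tissue contrasts are not given here, so those counts cannot be set against them. The cause of these moves was not tested.

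Changes of sign were these. In liver SA minus CON, SLC25A26 stood at 0.031, 0.135 and 0.070 after quantile normalization, removal of mitochondrially encoded and ribosomal RNA and median centring, and SLC25A32 at 0.031 after that removal. In pituitary SA minus CON, SLC25A27 stood at 0.068 with array weights and SLC25A41, at 0.038 as reported, ranged from -0.154 to 0.310 without single libraries and was below 0 without SA 1, SA 2, CON 2 or CON 3. With the SA libraries, SLC25A3 stood at -2.04 in liver minus tail fat, SLC25A42 at -0.17 in liver minus brain and SLC25A35 at 0.39 in tail fat minus brain. In liver minus brain, SLC25A38 stood at 0.22 and 0.22 after quantile normalization and median centring, and SLC25A6 at 0.19 after median centring. In tail fat minus brain the values after quantile normalization and median centring were 0.069 and 0.38 for SLC25A11, 0.14 and 0.34 for SLC25A21, 0.33 and 0.40 for SLC25A26, 0.51 and 0.54 for SLC25A35 and 0.36 and 0.34 for SLC25A38, and SLC25A33 stood at 0.055 after median centring.

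The replicate numbers are not stated to pair sheep, and 4 of 16 pairs across diets and 10 of 48 across tissues had correlated deviations above 0.1. All 4 same-numbered pairs of hypothalamus SA and pituitary SA were among these, at 0.147, 0.284, 0.358 and 0.136, which is a hint from the data and not the design. In those SA libraries with the replicate number as a block, an alternative chosen after seeing the data, 0 carriers were higher or lower in hypothalamus minus pituitary, as without the block. The tissue differences reported use the CON libraries. With the replicate number as a block, liver gave 2 higher and 17 lower carriers and the other diet comparisons 0. Leaving out tail fat SA 1 and CON 2 together, and SA 4 with median centring in pituitary, were chosen after seeing the data, and neither called a carrier. Count-based alternatives were not run because the values are TPM, and depth is unknown.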
